A study of Homo sapiens with 2 samples.

Results

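This report describes the genes of heat shock proteins and chaperones in live and processed Stage 6 cells. Members were chosen by gene symbol. They are the HSP90 genes HSP90AA1 and HSP90AB1, the numbered HSPA, HSPB, DNAJA, DNAJB, DNAJC and HSF genes, HSPA4L, HSPH1, HSPD1, HSPE1, the CCT genes with TCP1, and BAG1 to BAG5. HSPA5, DNAJB9, DNAJB11 and DNAJC3, which serve the endoplasmic reticulum (ER), were left out. The rule gave 80 of the 55797 genes in the tables. It does not reach HSPA1A and HSPA1B, the best known heat-inducible HSP70 genes, whose values are given beside the members. The name of the group does not hold for every member, since some of these proteins work in mitochondria or in the ER.

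RNA-seq was carried out on 1 library of live and 1 library of processed cells, both made from H1, a long-established line of human embryonic stem cells, taken through stepwise differentiation to Stage 6, where some cells express insulin. The culture was divided in 2. One portion was left unfixed and unsorted, and its RNA was extracted at once by the RNeasy protocol (live). The other was fixed with paraformaldehyde, permeabilized, stained with antibodies and passed through the sorter without selection, every cell being kept, and its RNA was extracted with a modified RecoverAll kit that includes a long protease digestion at raised temperature (processed). Fixation, sorting and kit therefore cannot be told apart, and the cultures are mixtures in which fewer cells of a type and less RNA per cell cannot be told apart either. Values are FPKM, fragment counts scaled to transcript length and to library size, with the lower and upper bound deposited for each gene. These bounds describe each library alone. With 1 library per condition there was no test, and "separate bounds" below means only that the 2 intervals do not touch.

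The libraries were alike in depth by the steps between low values, a measure of how much FPKM 1 fragment adds. These steps were 1.07 times as wide in the processed library. FPKM summed to 510713 in live and 499398 in processed cells. As FPKM is already scaled to library size, these sums do not measure depth. The markers of Stage 6 cultures were present in both libraries. Insulin (INS) had 98.3 FPKM before and 121 FPKM after processing, and NKX6-1, the lowest of the 6 markers, was at 16.8 and 16.0 FPKM. The log2 ratio used throughout is log2((processed FPKM + 1) / (live FPKM + 1)), on which the differences of weakly expressed genes come out too small. The median of the ratios of processed over live values, across genes that reach 1 FPKM in both, was 0.932, or -0.10 on the log2 scale, and dividing processed values by it is called median-ratio scaling below.

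Molecular chaperones bind proteins that are not yet folded, or that have lost their fold, and release them in cycles driven by ATP. HSP70 proteins bind short hydrophobic stretches, J-domain (DNAJ) proteins bring substrates and start ATP hydrolysis, and nucleotide exchange factors of the HSP110 and BAG families reopen the cycle. HSP90 acts later, on kinases, steroid receptors and other near-native clients, while the ring-shaped TRiC/CCT complex encloses actin, tubulin and other cytosolic proteins, and HSP60 with its lid HSP10 does the like in mitochondria. Small HSPs hold unfolded proteins without ATP. When unfolded protein builds up, the transcription factor HSF1 forms trimers, binds heat shock elements in promoters and induces many of these genes.

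Heat shock elements, the sequence read by HSF1, are alternating GAA and TTC units spaced by 2 bases. They are shown to mark which members carry an exact match near an annotated start, and other forms of the element were not searched. The 250 bases before each annotated start were searched for 3 units in a row, in the order GAA, TTC, GAA or TTC, GAA, TTC with any 2 bases between units, which covers both strands. A gene with several annotated starts was counted if any of its windows held a match. RefSeq promoters of build GRCh38.p14 were on hand for 69 of the 80 members. A match was found in 6 of these, or 8.70%, compared with 0.557% of all 27305 genes with a promoter. The 2-unit core, GAA and TTC in either order, which is contained in the longer motif, was found in 21 members (30.4%) and in 13.96% of all genes. The 6 stretches below are printed on the strand of the gene, with matches in capitals.
HSPA8: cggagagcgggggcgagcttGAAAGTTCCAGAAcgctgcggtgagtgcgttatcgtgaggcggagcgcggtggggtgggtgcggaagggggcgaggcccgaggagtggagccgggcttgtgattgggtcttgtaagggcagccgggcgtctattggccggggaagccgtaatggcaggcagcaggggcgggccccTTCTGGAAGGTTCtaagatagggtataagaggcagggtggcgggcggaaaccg
HSP90AB1: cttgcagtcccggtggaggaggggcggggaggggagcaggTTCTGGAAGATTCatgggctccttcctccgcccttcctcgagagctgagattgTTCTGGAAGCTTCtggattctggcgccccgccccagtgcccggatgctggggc
HSP90AA1: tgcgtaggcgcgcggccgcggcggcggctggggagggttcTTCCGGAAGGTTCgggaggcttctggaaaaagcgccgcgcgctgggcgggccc
HSPD1: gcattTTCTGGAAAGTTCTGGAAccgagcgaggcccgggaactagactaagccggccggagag
HSPA6: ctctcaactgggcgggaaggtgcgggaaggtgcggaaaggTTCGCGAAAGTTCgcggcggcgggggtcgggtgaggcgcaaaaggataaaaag
DNAJB6: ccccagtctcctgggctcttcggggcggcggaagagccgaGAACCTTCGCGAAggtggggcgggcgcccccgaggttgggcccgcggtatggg

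On GRCh38.p14 these stretches lie at chr11:123062139-123062386 on the minus strand (HSPA8), chr6:44247738-44247883 on the plus strand (HSP90AB1), chr14:102087080-102087172 on the minus strand (HSP90AA1), chr2:197500028-197500090 on the minus strand (HSPD1), chr1:161524426-161524518 on the plus strand (HSPA6) and chr7:157336833-157336925 on the plus strand (DNAJB6). HSPA8 holds 2 matches, of which the nearer ends 43 bases before the start, and the matches of HSPD1 overlap to form a run of 4 units. A match is a description of these letters and not a binding site measured here. Whether HSF1 acts on members without a match was not tested. Of the members on the heat-inducible list below, HSP90AA1, HSPD1 and HSPA6 had a 3-unit match. DNAJB1, HSPB1 and HSPA4L had only the 2-unit core, and HSPH1, BAG3 and HSPE1 had neither. Of the 6 genes, HSPA8, HSP90AB1, HSP90AA1 and HSPD1 are among the most abundant members, DNAJB6 is at an intermediate level, and HSPA6 stays below 1 FPKM in both libraries.

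Of the 80 members, 69 reached 1 FPKM in one library or both. Of these 69, 33 were lower and 16 were higher in processed cells with separate bounds, and the bounds of 20 touched. Among all 17326 genes that pass the same filter, 43.7% were lower and 28.1% were higher with separate bounds, so the 47.8% and 23.2% of the members lie near the background. The median log2 ratio was -0.14 over these members and -0.09 over all such genes. Under median-ratio scaling, 25 members were lower and 21 higher, against 35.7% and 34.8% of all genes. The calls that changed were those of BAG1, DNAJA2, DNAJB2, DNAJC7, DNAJC14, DNAJC21, DNAJC25 and HSPA14, no longer lower, and of DNAJB1, DNAJC8, DNAJC9, DNAJC16 and DNAJC24, now higher. With 1 FPKM added to both values, as in the log2 ratio, no member was more than 2-fold lower. On the same scale 3 were more than 2-fold higher, namely HSPB6, DNAJB13 and DNAJA4, where the background is 6.19% lower and 6.57% higher. All 3 had less than 4 FPKM in either library, and 58 of the 69 members lay within 0.5 of 0 on the log2 scale. Without this addition CCT6B was more than 2-fold lower, at 0.375 times its live value (1.22 and 0.459 FPKM).

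**Figure D1:**
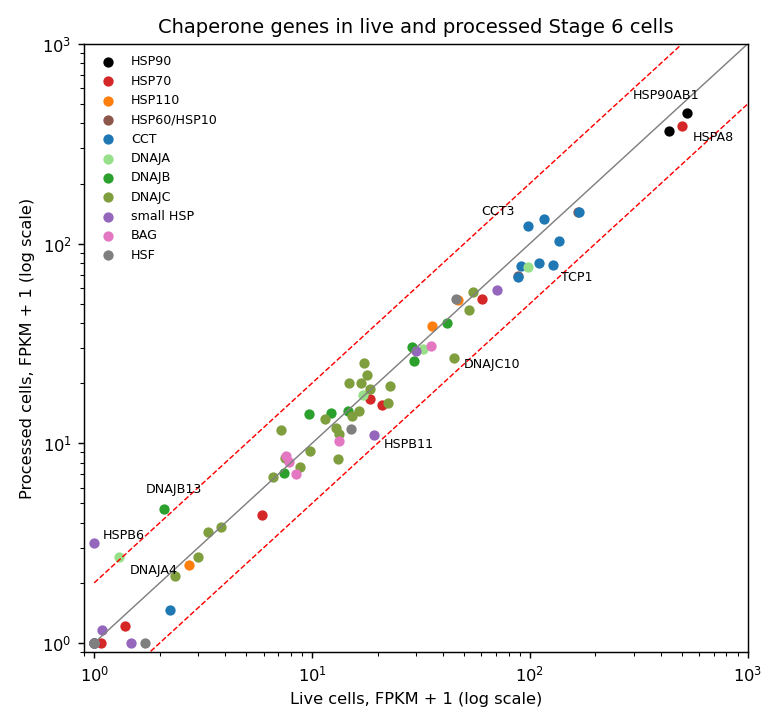
FPKM + 1 of the 80 chaperone genes in the live library (x axis) and in the processed library (y axis), both on log scales, coloured by class, with 1 library per condition. The solid line marks equal values and the dashed red lines a 2-fold difference; HSPB6, DNAJB13 and DNAJA4 lie above the upper line, no gene lies under the lower one, and the most abundant genes, such as HSP90AB1 and HSPA8, sit just under the solid line.

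Abundant members were mostly lower. Of the 20 members with at least 50 FPKM in a library, 15 were lower and 4 higher in processed cells with separate bounds, compared with 49.7% and 27.2% of all 1722 genes at this level. Their median log2 ratio was -0.24, against -0.08 for all genes at this level. The level of 50 FPKM was chosen after the values had been seen. Under median-ratio scaling the counts were 14 lower and 5 higher, with 33.3% and 41.2% of all genes at this level. From 10 to under 50 FPKM, 14 of 31 members were lower (45.2%, background 46.6%), and from 1 to under 10 FPKM 4 of 18 were (22.2%, background 40.3%). In sum, members held 3746 FPKM in live cells and 3250 FPKM after processing, 0.734% and 0.651% of all FPKM. HSP90AA1, HSP90AB1 and HSPA8 alone made up 38.98% and 37.01% of the members' total.

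**Figure D2:**
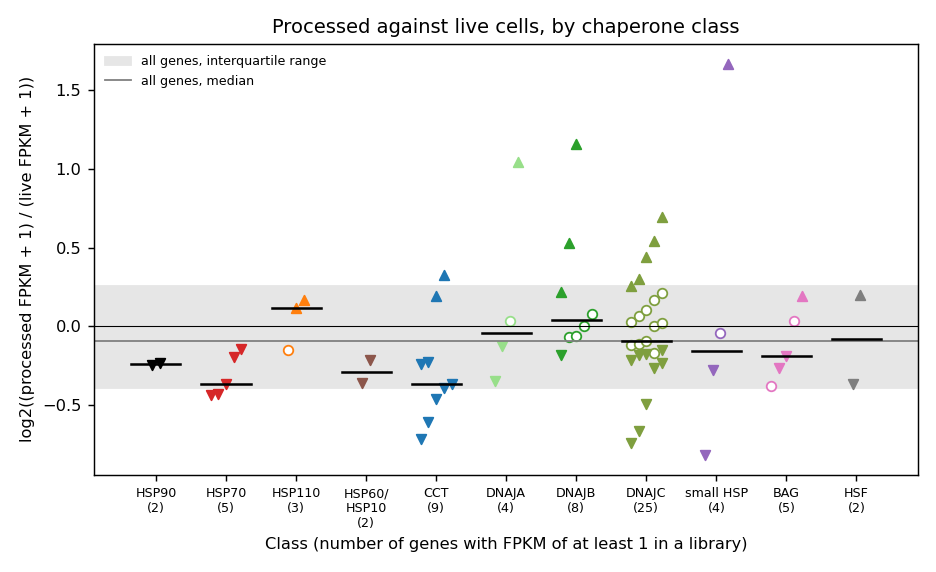
The log2 ratio, log2((processed FPKM + 1) / (live FPKM + 1)) of the 69 chaperone genes that reach 1 FPKM, by class, with the number of genes under each class. Down-pointing triangles are genes lower and up-pointing triangles genes higher in processed cells with separate bounds, open circles are genes whose bounds touch, black bars are class medians, and the grey line and band are the median (-0.09) and interquartile range (-0.39 to 0.25) of all genes past the same filter. Every HSP90, HSP70 and HSP60/HSP10 gene lies under 0, and CCT genes lie on both sides.

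Both cytosolic HSP90 genes were lower in processed cells with separate bounds, as were 49.7% of all genes with at least 50 FPKM in a library. HSP90AB1, the constitutive form (chromosome 6, 44214824 to 44221620 on GRCh37/hg19, as are all gene positions here), had 528 FPKM in live cells (bounds 525 to 532) and 450 FPKM in processed cells (447 to 453), a log2 ratio of -0.23. HSP90AA1, the more heat-responsive form (chromosome 14, 102547106 to 102606036), had 434 FPKM (431 to 437) and 366 FPKM (363 to 368), a log2 ratio of -0.25. The intervals of the 2 libraries do not touch for either gene, and the pair kept its proportion, with 1.22 and 1.23 times as much HSP90AB1 as HSP90AA1. By FPKM, HSP90AB1 was number 142 of all genes in live and number 156 in processed cells, the highest place of any member in each library.

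The 5 HSP70 genes past the filter were likewise lower with separate bounds (100%, background 43.7%). Under median-ratio scaling the bounds of HSPA14 touch, which leaves 4 lower, against 35.7% of all genes. HSPA8 (HSC70, the constitutive cytosolic HSP70, chromosome 11, 122928197 to 122933938) had 498 FPKM in live cells (492 to 504) and 387 FPKM in processed cells (382 to 391), a log2 ratio of -0.36. HSP90AB1 exceeded it 1.06 times in live cells and 1.16 times in processed cells. HSPA9 (mortalin, the mitochondrial HSP70) had 59.3 and 51.7 FPKM. HSPA13 (STCH, found in microsomes) had 20.0 and 14.5 FPKM, a log2 ratio of -0.44, and HSPA14, which works with ribosomes, had 17.4 and 15.7 FPKM. HSPA2, best known from the testis, was lowest of the 5 at 4.91 and 3.39 FPKM. HSPA6, a strictly heat-induced gene, had 0.391 FPKM in live (0.312 to 0.470) and 0.218 FPKM in processed cells (0.156 to 0.280). HSPA7, its neighbouring pseudogene, was at 0.0739 FPKM with status LOWDATA in live cells and at 0 in processed cells. The HSP70 set therefore held 1 dominant gene and a tail, HSPA8 having 8.39 times the FPKM of HSPA9 in live and 7.48 times in processed cells.

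The nucleotide exchange factors were of mixed direction, with 2 HSP110 genes and BAG2 higher and BAG1 and BAG4 lower. Of the 5 BAG genes 40% were lower and 20% higher with separate bounds, and of the 3 HSP110 genes 66.7% were higher. Among all genes past the filter, 43.7% were lower and 28.1% higher, so mixed directions are also found in the background. In the HSP110 family, HSPA4 (APG-2) had 45.6 FPKM in live cells (44.3 to 46.9) and 51.4 FPKM in processed cells (49.5 to 53.3), and HSPH1 (HSP105) had 34.4 FPKM (33.5 to 35.3) and 37.5 FPKM (35.98 to 38.96). Both were higher in processed cells with separate bounds, at log2 ratios of 0.17 and 0.12. HSPA4L, the third of the family, had 1.73 and 1.47 FPKM, with bounds that touched. Among the BAG genes, whose BAG domain opens the nucleotide pocket of HSP70, BAG1 was the most abundant at 34.0 and 29.7 FPKM and BAG4 had 7.41 and 6.00 FPKM, both lower with separate bounds, BAG1 not so under median-ratio scaling. BAG2, an inhibitor of the ubiquitin ligase CHIP, was higher at 6.57 and 7.67 FPKM. BAG3, which is induced by stress and links HSP70 to autophagy, had 6.86 FPKM in live (6.52 to 7.2) and 7.04 FPKM in processed cells (6.49 to 7.59). For BAG5 the estimate in live cells carries the status FAIL, with 12.3 FPKM between bounds of 0 and 100, and it cannot be compared with the 9.26 FPKM in processed cells.

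The mitochondrial folding chamber was lower in processed cells in both parts. HSPD1 (HSP60, chromosome 2, 198351305 to 198381461) had 166 FPKM in live (163 to 168) and 143 FPKM in processed cells (140 to 145), a log2 ratio of -0.22. HSPE1 (HSP10, chromosome 2, 198364718 to 198368181) had 87.7 FPKM (84.9 to 90.5) and 68.0 FPKM (65.5 to 70.5), a log2 ratio of -0.36. The genes lie head to head and share a promoter region, and their spans overlap in the tables, together with MOB4 at 27.6 and 19.2 FPKM. HSPD1 had 1.89 times the FPKM of HSPE1 in live and 2.10 times in processed cells. The list of members taken as mitochondrial was drawn up after the values were seen, so its counts depend on this choice. Of its 8 members, 5 were lower (62.5%, background 43.7%) and 1 was higher (12.5%, background 28.1%) with separate bounds. Median-ratio scaling gave the same numbers, against 35.7% and 34.8% of all genes. The higher one was DNAJC15, a J protein of the inner membrane, at 15.8 and 19.0 FPKM, whereas its relative DNAJC19, a part of the protein import motor, was lower at 12.3 and 10.1 FPKM. DNAJC11 was lower as well, at 21.8 and 18.4 FPKM, and DNAJA3 (16.1 and 16.5 FPKM) and DNAJC30 (5.63 and 5.75 FPKM) had bounds that touched. Of the members on this list, HSPD1, HSPE1 and HSPA9 were thus lower, and the J proteins were of both directions.

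The 8 genes of the TRiC/CCT ring encode subunits that each occupy a fixed place in the complex, and all 8 were abundant. CCT2 was highest in both libraries, with 167 FPKM in live (164 to 170) and 143 FPKM in processed cells (136 to 149), and CCT4 was lowest in both, with 86.9 FPKM (85.2 to 88.6) and 67.1 FPKM (65.7 to 68.5). The highest subunit exceeded the lowest 1.92 times in live and 2.12 times in processed cells. Between them the subunits went in opposite directions. TCP1 (CCT1, chromosome 6, 160199530 to 160210781) differed most, with 127 FPKM in live (125 to 130) and 77.3 FPKM in processed cells (75.6 to 79.0), a log2 ratio of -0.71. It went from the third to the sixth place among the 8 subunits. CCT7 had 109 and 78.7 FPKM, CCT5 had 135 and 103 FPKM, and CCT8 had 90.5 and 76.4 FPKM, all lower with separate bounds.

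Against these 6 lower subunits stood CCT3 and CCT6A. Of all 1722 genes with at least 50 FPKM in a library, 49.7% were lower and 27.2% higher with separate bounds. CCT3 (chromosome 1, 156278759 to 156337664) had 97.2 FPKM in live (95.3 to 99.1) and 122 FPKM in processed cells (119 to 126), a log2 ratio of 0.33. CCT6A (chromosome 7, 56119323 to 56131682) had 115 FPKM (112 to 118) and 132 FPKM (128 to 135), a log2 ratio of 0.19. Both remained higher under each scaling tried, and TCP1 remained lower. Relative to CCT2 in the same library, which no common scaling alters, CCT3 stood at 0.582 in live and 0.857 in processed cells, and TCP1 at 0.763 and 0.543. The spread over the 8 subunits, as a coefficient of variation, was 23.0% in live and 29.1% in processed cells. CCT6B, a testis-enriched form of CCT6A that is the ninth gene of the class, had 1.22 FPKM in live (1.02 to 1.43) and 0.459 FPKM in processed cells. It was lower with separate bounds, at a log2 ratio of -0.61. Both TCP1 and CCT3 overlap a protein-coding gene that reaches 1 FPKM. ACAT2, which overlaps TCP1, had 36.8 and 41.1 FPKM, and TSACC, which overlaps CCT3, was practically 0 in live cells and had 1.30 FPKM in processed cells. Their part in the values of TCP1 and CCT3 was not tested.

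**Figure D3:**
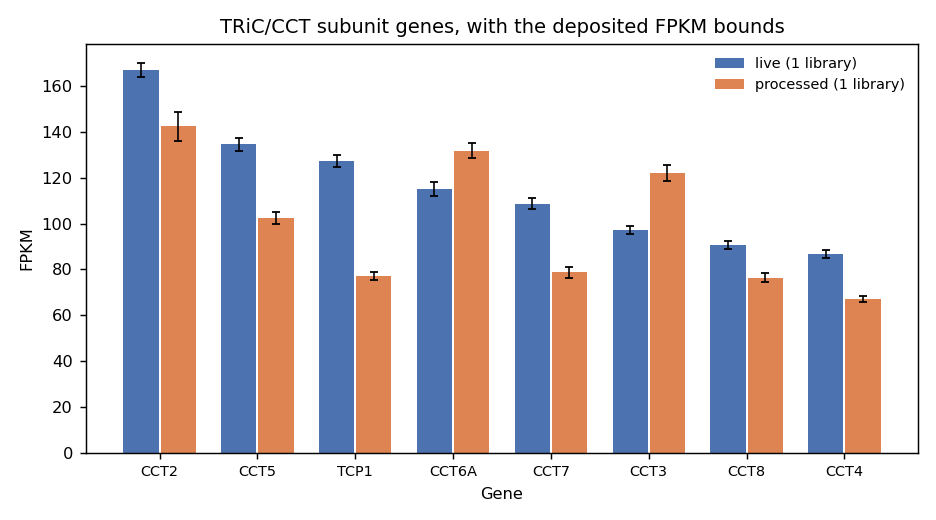
FPKM (bars, from 0) of the 8 TRiC/CCT subunit genes in the live and the processed library, in the order of the live values, with the deposited lower and upper bounds as error bars and 1 library per condition. CCT2, CCT5, TCP1, CCT7, CCT8 and CCT4 are lower in processed cells with bounds that do not touch, and CCT6A and CCT3 are higher.

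J-domain proteins form the largest class, with 40 members, and 37 of them passed the filter. Of these, 12 were lower (32.4%) and 9 higher (24.3%) with separate bounds, against 43.7% and 28.1% of all genes, and their median log2 ratio was -0.000296, against -0.09. The balance turned under median-ratio scaling, with 6 lower and 14 higher, against 35.7% and 34.8% of all genes. DNAJA1, a cytosolic partner of HSPA8 and the most abundant J protein gene here (chromosome 9, 33025209 to 33039905), had 96.7 FPKM in live (94.8 to 98.6) and 75.8 FPKM in processed cells (74.0 to 77.5), a log2 ratio of -0.35. DNAJA2 had 31.3 and 28.7 FPKM, also lower with separate bounds, but not under median-ratio scaling. DNAJA4 was near the floor, with 0.302 FPKM in live (0.192 to 0.411) and 1.69 FPKM in processed cells (1.30 to 2.07), a log2 ratio of 1.04. This corresponds to about 92.6 and 482 fragments if all came from its longest annotated transcript. WDR61, which overlaps DNAJA4, had 24.4 and 23.8 FPKM.

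Among the DNAJB genes, DNAJB6, which prevents aggregation of polyglutamine proteins and carries the element shown above, was the most abundant at 40.9 FPKM in live (39.4 to 42.4) and 39.0 FPKM in processed cells (37.4 to 40.6). DNAJB1 (HSP40), the classical heat-induced J protein, had 27.9 FPKM (27.0 to 28.8) and 29.5 FPKM (28.7 to 30.3). The bounds touched for both genes, and separated for DNAJB1, as higher, under median-ratio scaling. DNAJB2, which is known from neurons, had 28.3 and 24.9 FPKM, lower except under median-ratio scaling. DNAJB4 (11.3 and 13.2 FPKM) and DNAJB5 (8.71 and 13.02 FPKM) were higher with separate bounds, DNAJB5 by 0.53 on the log2 scale. DNAJB13, a component of ciliary radial spokes and not a stress protein, had 1.10 FPKM in live (0.846 to 1.35) and 3.68 FPKM in processed cells (3.12 to 4.23), a log2 ratio of 1.16, and no gene that reaches 1 FPKM overlaps it. The ER membrane proteins DNAJB12 (13.6 FPKM in both libraries) and DNAJB14 (6.41 and 6.09 FPKM) had bounds that touched. DNAJB3, DNAJB7 and DNAJB8 were at or practically at 0 in both libraries.

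The 25 DNAJC genes share little beyond the J domain, and all passed the filter. With separate bounds, 9 were lower and 5 were higher, or 36% and 20% beside 43.7% and 28.1% of all genes, and 11 had bounds that touched. This balance too turned under median-ratio scaling, to 5 lower and 9 higher, against 35.7% and 34.8% of all genes. The lowest ratio was that of DNAJC10 (ERdj5, a disulfide reductase of the ER, chromosome 2, 183580999 to 183644334), with 43.99 FPKM in live (42.99 to 44.98) and 25.9 FPKM in processed cells (25.3 to 26.5), a log2 ratio of -0.74. No gene of at least 1 FPKM overlaps it. DNAJC22, a protein with several membrane spans, had 12.2 and 7.30 FPKM, a log2 ratio of -0.67. DNAJC5 (cysteine string protein, which protects the fusion machinery on secretory vesicles) had 21.4 FPKM (20.5 to 22.2) and 14.9 FPKM (14.4 to 15.3), a log2 ratio of -0.50.

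In the other direction, DNAJC18 had 6.19 FPKM in live (5.43 to 6.95) and 10.6 FPKM in processed cells (9.43 to 11.9), a log2 ratio of 0.70. DNAJC4 had 16.3 and 24.2 FPKM, a log2 ratio of 0.54, and DNAJC1, a J protein of the ER membrane that touches ribosomes, had 13.8 and 19.1 FPKM. DNAJC2 (zuotin, the ribosome-bound J protein) had 16.8 and 20.9 FPKM. NUDT22, which overlaps DNAJC4, was at 15.2 and 13.3 FPKM. The abundant nuclear and cytosolic members differed little. DNAJC8, found with the spliceosome, had 53.8 FPKM (52.4 to 55.1) and 56.4 FPKM (54.6 to 58.1), and DNAJC7 (TPR2, which passes clients between HSP70 and HSP90) had 51.4 FPKM (49.95 to 52.9) and 45.5 FPKM (43.6 to 47.4). DNAJC9, a histone chaperone, had 17.4 and 17.7 FPKM. Under median-ratio scaling DNAJC7 was no longer lower, and DNAJC8 and DNAJC9 were higher. DNAJC14 had 15.4 and 13.5 FPKM and DNAJC21 had 14.3 and 12.8 FPKM, both lower, but not under median-ratio scaling. DNAJC16 (10.4 and 12.2 FPKM) and DNAJC17 (11.9 and 10.9 FPKM) had bounds that touched, and DNAJC16 was higher under that scaling. The remaining DNAJC genes not named here or under mitochondria had under 10 FPKM in both libraries, down to 1.36 and 1.17 FPKM for DNAJC28. DNAJC6 (auxilin, which uncoats clathrin vesicles) had 2.80 and 2.81 FPKM. Of the 8 members taken as ER proteins, from the HSPA, DNAJB and DNAJC genes, 4 were lower with separate bounds (50%, background 43.7%). The higher side held 1 (12.5%, background 28.1%). Under median-ratio scaling 2 were lower and 2 higher, against 35.7% and 34.8% of all genes. The list was drawn up after the values were seen and leaves out DNAJC18, which was higher, so the count of higher genes depends on this choice.

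Of the 8 small HSP genes, 4 passed the filter. HSPB1 (HSP27, chromosome 7, 75931861 to 75933612) had 69.9 FPKM in live (67.1 to 72.7) and 57.5 FPKM in processed cells (55.4 to 59.5), a log2 ratio of -0.28. HSPB8, which forms a complex with BAG3, had 28.9 FPKM (28.2 to 29.7) and 28.1 FPKM (27.3 to 28.9), so that both partners had bounds that touched. HSPB11 (chromosome 1, 54387234 to 54411975) had 18.4 FPKM (17.1 to 19.6) and 9.99 FPKM (9.06 to 10.9), the lowest log2 ratio of all members at -0.82. Its protein is IFT25, a part of the intraflagellar transport machinery of cilia, and not a typical small HSP. LRRC42, which overlaps HSPB11, had 34.4 and 33.2 FPKM.

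HSPB6 (HSP20, known from muscle, chromosome 19, 36245469 to 36248980) was practically 0 in live cells, with an upper bound of 0.0215 FPKM, and had 2.18 FPKM in processed cells (1.70 to 2.67). Its log2 ratio of 1.67 was the highest of all members and moved to 4.51 with a pseudocount of 0.1. The non-coding gene AC002398.12 overlaps HSPB6 and stood the other way round, with 1.30 FPKM in live cells and 0 in processed cells. Whether fragments of one were assigned to the other was not tested. HSPB2 and HSPB3, which belong to muscle, were at or practically at 0 in both libraries, HSPB7 reached 0.0853 and 0.167 FPKM, and HSPB9 had 0.473 FPKM in live cells and was listed at 0 in processed cells.

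HSF1, the main regulator of the heat shock response (chromosome 8, 145515280 to 145538385), had 44.9 FPKM in live (43.2 to 46.7) and 51.7 FPKM in processed cells (49.7 to 53.8), a log2 ratio of 0.20. HSF2, which can form trimers with HSF1, had 14.2 FPKM (13.5 to 14.8) and 10.8 FPKM (10.3 to 11.2), a log2 ratio of -0.36. The 2 genes thus separated in opposite directions. HSF4, known from the lens, had 0.713 FPKM in live cells and practically 0 in processed cells, and HSF5 was near 0 in both. HSF1 is activated at the level of the protein, so its mRNA is not a measure of its activity.

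A list of 12 classical heat-inducible genes was examined, 9 of them members. Without HSPA6, which stayed under 1 FPKM, 5 were lower and 2 higher in processed cells with separate bounds, and the bounds of 4 touched. The 5 lower genes are 45.5% of the 11 and the 2 higher ones 18.2%, near the 43.7% of all genes for the lower side and under the 28.1% for the higher side. Under median-ratio scaling DNAJB1 became higher, giving 5 lower and 3 higher, against 35.7% and 34.8% of all genes. The lower ones were HSP90AA1, HSPD1, HSPE1, HSPB1 and HSPA1B, and the higher ones were HSPH1 and HSPA1A. Their median log2 ratio was -0.22, against -0.09 for all genes. HSPA1A (chromosome 6, 31783291 to 31785723) had 4.93 FPKM in live (4.54 to 5.31) and 7.33 FPKM in processed cells (6.86 to 7.79). HSPA1B (chromosome 6, 31795512 to 31798031) had 7.82 FPKM (7.45 to 8.18) and 6.51 FPKM (6.16 to 6.85). These 2 genes encode the same protein and are nearly identical, so the split of fragments between them is uncertain. Their sum was 12.7 FPKM in live cells and 13.8 FPKM after processing, and HSPA8 exceeded it 39.1 and 27.9 times. CRYAB (alpha-B crystallin, a small HSP), had 1.11 and 0.756 FPKM, with bounds that touched.

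**Figure D4:**
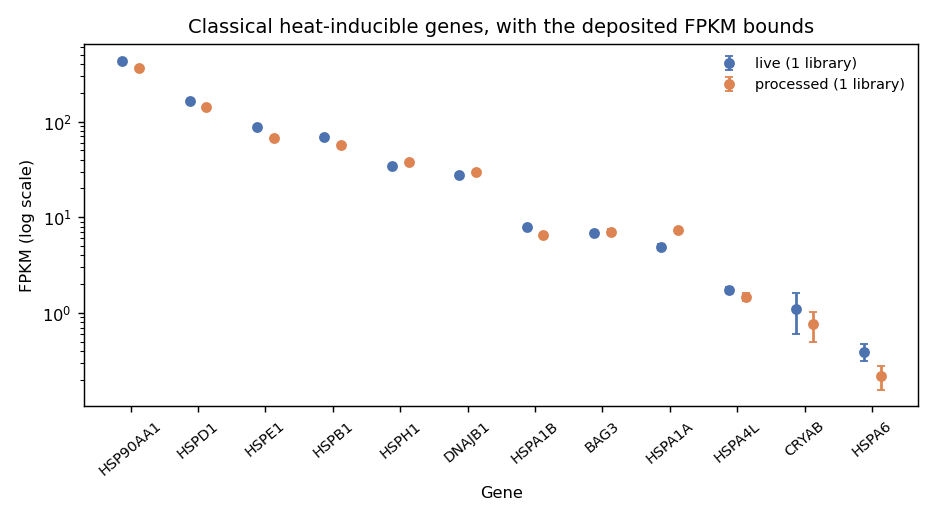
FPKM on a log scale of 12 classical heat-inducible genes in the live and the processed library, in the order of the live values, with the deposited lower and upper bounds as error bars, which are smaller than the points where they cannot be seen (1 library per condition). Every gene differs by less than 2-fold in FPKM between the 2 libraries, from HSP90AA1 at 434 and 366 FPKM to HSPA6 at 0.391 and 0.218 FPKM. HSPA6, lower with separate bounds, is furthest apart on this axis, and HSPA1A has the highest log2 ratio of the list (0.49).

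Of the 5 genes with a 3-unit heat shock element in the searched window that passed the filter, HSPA8, HSP90AA1, HSP90AB1 and HSPD1 were lower with separate bounds and DNAJB6 had bounds that touched, with a median log2 ratio of -0.23. All 4 lower genes had over 100 FPKM in each library. Of all genes past the filter 43.7% were lower, and of those with at least 50 FPKM in a library 49.7% were. Of the 20 members at this level, 15 were lower, so level and element cannot be told apart here. Among 18 members past the filter with the 2-unit core, the 5 genes with a 3-unit element included, 9 were lower (50%) and 5 higher (27.8%). Among 43 members with neither, 20 were lower (46.5%) and 8 higher (18.6%). Before scaling, the shares that were lower lie near the 43.7% of all genes in both sets. Under median-ratio scaling 9 of 18 were lower (50%) and 6 higher with the core, and 13 and 11 of 43 without it. The background under this scaling was 35.7% lower and 34.8% higher.

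The partners of these chaperones outside the naming rule were examined as a list of 30 genes, of which 29 passed the filter. With separate bounds, 16 were lower (55.2%, background 43.7%) and 9 higher (31.0%, background 28.1%), and the median log2 ratio was -0.13, against -0.09 for all genes. Under median-ratio scaling 7 were lower and 9 higher, against 35.7% and 34.8% of all genes. Of the 11 HSP90 partners, 5 were lower and 5 higher, and 1 and 5 under this scaling. PTGES3 (p23), which binds the closed form of HSP90, was the most abundant of them at 180 and 165 FPKM. CDC37, the kinase adaptor, had 90.5 and 102 FPKM, and STIP1 (HOP), which joins HSP70 to HSP90, had 72.04 and 67.3 FPKM. All 6 prefoldin genes, whose product hands actin and tubulin to TRiC, passed the filter, 4 lower and 2 higher, and 2 and 2 under this scaling. STUB1 (CHIP, the ubiquitin ligase bound to HSP70 and HSP90) had the lowest ratio of the list, with 46.7 FPKM in live (45.1 to 48.2) and 26.6 FPKM in processed cells (25.4 to 27.7), a log2 ratio of -0.79.

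Chaperone genes have many processed copies in the genome, and fragments from a copy and its parent can be exchanged in the assignment. There were 41 pseudogenes named after members, holding 101 FPKM in live cells and 86.6 FPKM after processing in all, and 16 reached an FPKM of 1. The highest was HSP90AB3P, with 33.4 and 27.0 FPKM, which is 6.33% and 6.00% of HSP90AB1. HSPD1P1 had 19.3 and 15.7 FPKM, or 11.6% and 11.03% of HSPD1, so that both copies kept their proportion to the parent. CCT8P1 had 11.7 and 12.97 FPKM with status LOWDATA in both libraries. TCP1P1 had 1.87 and 2.39 FPKM, beside 127 and 77.3 FPKM for TCP1, and the highest copy of CCT6A, CCT6P1, had 8.32 and 7.27 FPKM. Of the 69 members past the filter, 27 overlap a gene that also reaches 1 FPKM. Their median log2 ratio was -0.15, compared with -0.12 for the 42 members with no such neighbour.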

How the data were processed

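From poly-A selected RNA, the authors aligned paired reads to GRCh37/hg19 with STAR 2.2.0c, guided by GENCODE annotations, and deposited per-gene FPKM values with a lower and an upper bound and a status. The submitters' processing notes name Cufflinks 2.0.2, and the study's methods name Cuffdiff for this step. The level of the bounds and per-gene read counts are not given in the sources used here. Files were joined by Ensembl identifier, and starts were converted to count from 1. Members, classes and lists were chosen with earlier results of these data known. Named were members with an FPKM of at least 10, members past 2-fold or among the 5 highest and lowest ratios, the listed classes and the heat-inducible list; other genes were named after their values were seen, as overlapping genes or pseudogenes, or to account for a member. HSP90AA6P, HSP90AB2P and HSP90AB3P were added to the pseudogene list, and the ER and mitochondrial lists were drawn up, after the values were seen.

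Calculations used Python 3.11.15, numpy 2.4.6 and pandas 2.3.3, with a pseudocount of 1 and a filter of 1 FPKM in at least one library, and were tested on simulated data. Depth was compared from the steps of low values of single-transcript genes, as FPKM times the transcript length less 170 nt. Gene types and transcripts came from GENCODE release 44 mapped to GRCh37, and promoters from RefSeq (GRCh38.p14), on standard chromosomes. No test was possible with 1 library per condition. Alternatives covered the pseudocount, the filter, the status, and 2 scalings.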

Additional observations from a re-analysis of the deposited data

Results flagged for a closer look

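Genes named after a member, but outside the group, were flagged where their FPKM in processed cells was at least 1 and lay above the live library with separate bounds. DNAJC9-AS1, the antisense neighbour of DNAJC9 (chromosome 10, 75006946 to 75036742), had 0.127 FPKM in live cells (0.0436 to 0.211) and 7.04 FPKM in processed cells, where its lower bound was 4.08. In the same overlapping cluster, MRPS16 had 36.97 and 18.5 FPKM and FAM149B1 had 7.72 and 10.7 FPKM, while DNAJC9 itself had 17.4 and 17.7 FPKM. Whether strand was used in counting is not given in the sources used here, so that fragments of DNAJC9-AS1 and its overlapping genes cannot be told apart. The others were pseudogenes. HSPA9P1 had 3.001 and 4.50 FPKM, whereas its parent HSPA9 was lower in processed cells. TCP1P1 had 1.87 and 2.39 FPKM, also against the direction of its parent, and CCT6P3 had 4.11 and 4.87 FPKM, in the direction of CCT6A. None of these differences has a replicate.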

How the results depend on the processing

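The number of members more than 2-fold higher, 3, became 0 among members with an FPKM of at least 10, since none of the 3 reaches this level. The number more than 2-fold lower, 0, became 1 with a pseudocount of 0.1, the gene being CCT6B at -1.24. The median log2 ratio of the members, the counts with separate bounds and the members' share of summed FPKM stayed within the set limits (0.1 on the log2 scale, 1.5 times for counts and 10% for shares) under the alternatives run for each. Under median-ratio scaling the class median of DNAJA became 0.0538 and that of HSF 0.0139, each below 0 otherwise. Counts by list under this scaling, added after seeing the data, turned from more lower to more higher for all J-domain genes, for DNAJC and for the partner genes. All genes past the filter went from 43.7% lower and 28.1% higher to 35.7% and 34.8%. As backgrounds chosen after seeing the data, 47.0% of protein-coding genes past the filter were lower and 25.6% higher with separate bounds, and 47.2% and 26.8% of genes with at least 10 FPKM, where 29 and 12 of 51 members were. Limits: 1 library per condition gives no replicate error, bounds cover each library alone, and the log2 ratios of HSPB6, DNAJB13, DNAJA4 and CCT6B move with the pseudocount. No paired analysis was possible because each condition has 1 library and the labels give no replicate number.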

Other observations

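Across the 66 members that reach 1 FPKM in each library, the log2 ratio went with the level in live cells at a Spearman rho of -0.36, compared with -0.09 across 12464 protein-coding genes. The live value is also the denominator of the ratio, so error in it alone pulls both of these rho values toward the negative side. The rho with the length of the longest annotated transcript was 0.02 across members and -0.15 across protein-coding genes, and that with its GC content was 0.14 and 0.17. These values are across genes that share 2 libraries, and genes are not independent replicates. Members with a longest transcript under 2000 nt had a median log2 ratio of -0.08 (12 genes), those from 2000 to under 4000 nt -0.19 (30 genes) and those of at least 4000 nt -0.15 (27 genes).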
